A study of Rattus norvegicus with 4 samples.

Results

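The genes described here encode the cell-surface receptors for noradrenaline, dopamine, serotonin, histamine, acetylcholine and adenosine. They were taken from the array by symbol. A non-control probe set counted when its only gene symbol in the platform annotation began with the family name, and 1 probe set was kept per gene, that with the highest mean over the 4 arrays. Drd1, Drd2 and Adora2a were left out, as was any gene listed only through probe sets with more than one gene record. This gave 48 genes from 66 probe sets, out of 4736 genes with a single symbol and 8740 non-control probe sets.

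RNA came from cortex on the side of a transient stroke in ovariectomised female rats, which had been given 17beta-estradiol or placebo. The middle cerebral artery had been closed for 2 h with an intraluminal device in both groups, so both carried the ovariectomy and the stroke, and uninjured or contralateral tissue was not analysed here. Each of the 4 arrays (Affymetrix RG-U34A, short oligonucleotide probe sets) held the pooled RNA of 3 animals, with 2 pools per treatment. The pools were independent, and below they carry their treatment and number (estradiol 1, for example). The series text names tissue taken 6 and 24 h after occlusion. A 6 appears in the codes of these arrays, without a label that spells out their time. Strain, age and estradiol dose are not given in the sources used here.

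Most of these receptors belong to the G protein-coupled class. Those coupled to Gs raise cyclic AMP, those coupled to Gi lower it, and those coupled to Gq release calcium through phospholipase C. The nicotinic acetylcholine receptors and the serotonin receptor built from Htr3a are instead ligand-gated cation channels made of 5 subunits. In cortex, noradrenaline, serotonin, dopamine and acetylcholine arrive mainly in fibres from brainstem and basal forebrain nuclei and set the excitability of local neurons. Adenosine is released during energy failure and dampens transmitter release through Adora1.

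The values are linear intensities that the authors had scaled to a common array mean. Array medians lay between 55.0 and 57.8. The array also carries 23 control probe sets for foreign transcripts (bacterial, yeast and mouse). The brightest of these read 33.9, 37.8, 37.8 and 30.1 in estradiol 1, estradiol 2, placebo 1 and placebo 2. A value at or below the brightest foreign control of its array is called background below. Between 58.9 and 64.6% of all probe sets lay above it. Intensities depend on the probes as well as on the transcript, so no gene is ranked against another.

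Of the 48 receptor genes, 22 lay above background on all 4 arrays, 14 on some and 12 on none. The 22 were 45.8% of the receptor genes, against 58.1% of all genes on the array, and the 12 were 25.0% against 21.9%. No gene was above background in both pools of one treatment and at background in both pools of the other. Among the 22 were 5 alpha-adrenergic genes (Adra1a, Adra1b, Adra1d, Adra2a and Adra2b), Adrb3, the dopamine receptor genes Drd3 and Drd5, and 5 serotonin receptor genes (Htr1d, Htr3a, Htr4, Htr5a and Htr6). The others were the muscarinic genes Chrm2, Chrm3 and Chrm4, the neuronal nicotinic subunits Chrna7 and Chrnb4, and the subunits Chrna1, Chrnb1, Chrnd and Chrng of the muscle nicotinic receptor.

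**Figure D1:**
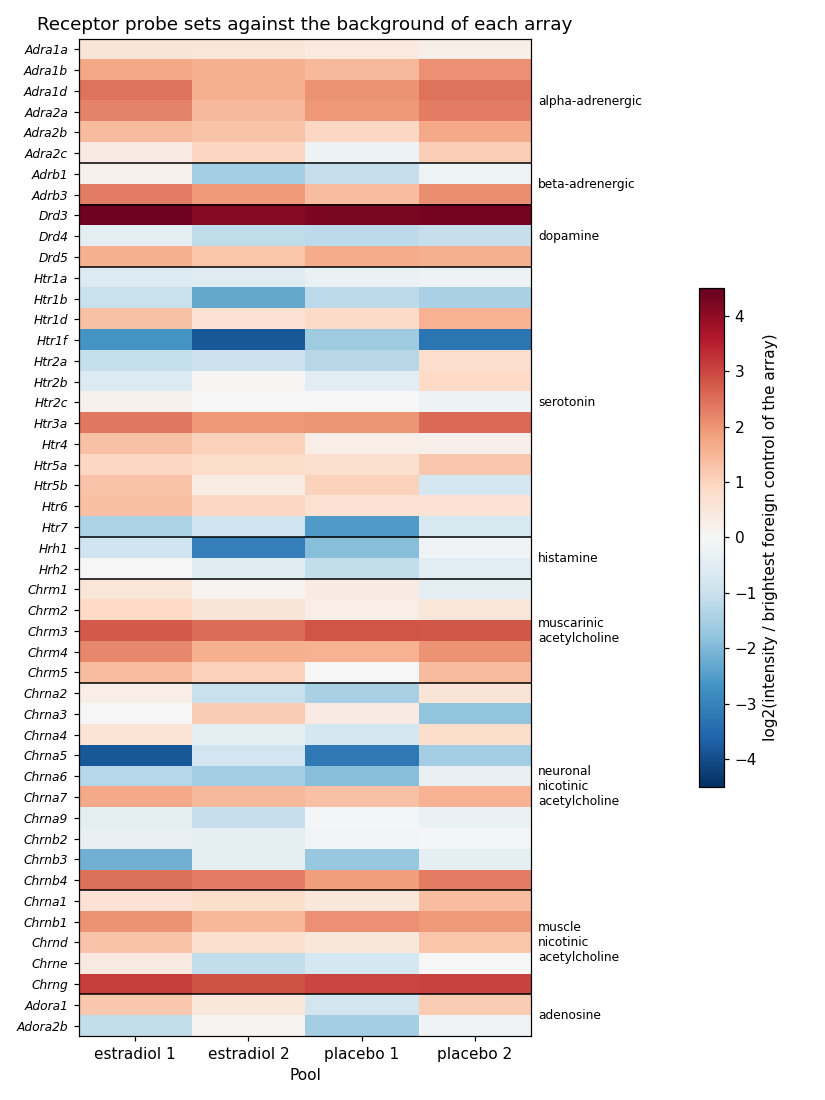
Intensity of each of the 48 receptor genes (rows, grouped by family) in each pool (columns), as the log2 ratio to the brightest foreign control of the same array. Red is above background and blue below. The alpha-adrenergic rows are red except Adra2c in placebo 1, whereas both histamine receptor rows lie below background in all 4 pools.

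The 12 genes at background on every array were Drd4, Hrh1, Hrh2, Htr1a, Htr1b, Htr1f, Htr7, Chrna5, Chrna6, Chrna9, Chrnb2 and Chrnb3. Several of these have a known place in cortex, such as Htr1a, a Gi-coupled receptor of pyramidal neurons and of serotonin neurons themselves, and Chrnb2, a subunit of the most common nicotinic receptor of brain. Htr1a read 21.9 and 26.1 under estradiol versus 30.7 and 25.9 under placebo. Chrnb2 read 26.6 and 28.8 under estradiol versus 34.7 and 29.0 under placebo. Background describes the probe set. Slc17a7, which encodes the vesicular glutamate transporter of cortical excitatory neurons, was also at background in all 4 pools, between 7.0 and 12.1.

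The serotonin receptor genes Htr2a, Htr2b and Htr2c reached above background in some pools. Htr2a, the Gq-coupled receptor gene of cortical pyramidal neurons, read 16.2 and 19.2 under estradiol versus 15.9 and 51.1 under placebo. It thus exceeded background in placebo 2 alone. Its other probe set was at background in every pool, at 26.5 and 13.4 under estradiol versus 15.6 and 15.6 under placebo. Htr2b read 22.0 and 38.8 under estradiol versus 27.2 and 55.4 under placebo, above background in the second pool of each treatment. Htr2c, which in rodents is strongly expressed in choroid plexus, read 39.0 and 37.5 under estradiol versus 37.4 and 25.9 under placebo. Choroid plexus RNA differed widely among the pools. Ttr, its most abundant marker transcript, read 165 and 4312 under estradiol versus 8034 and 74.3 under placebo. Htr2c exceeded background in estradiol 1 alone, where it was highest and Ttr read 165. It was at background in estradiol 2, placebo 1 and placebo 2. Htr2c was lowest in placebo 2, as was Ttr, but it read 37.4 in placebo 1, where Ttr was highest. The other Htr2c probe set was at background in every pool, at 16.9 and 10.4 under estradiol versus 19.4 and 3.9 under placebo. That probe set was highest in placebo 1 and lowest in placebo 2, as was Ttr. Whether choroid plexus RNA contributed to the Htr2c values was not tested.

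The comparison asked which receptor transcripts differ with estradiol in the injured cortex. Values were compared as log2(intensity + 16) with limma over all probe sets whose mean reached the 40th percentile, an intensity of 37.5. Of the 48 genes, 29 passed that filter and 19 did not. The filter took the mean over both treatments, and counts over the 29 describe them alone. With Benjamini-Hochberg adjustment over 5244 probe sets, 0 of the 29 passed the threshold of 0.05 in limma, where 0% of all probe sets did, and each of the 29 had an adjusted p of 0.998. At an unadjusted p below 0.05 there was 1 of 29, Htr4, where 2.58% of the 3181 tested genes and 3.07% of all tested probe sets were below it. For 1 gene taken alone, 2 pools against 2 cannot give an exact two-sided permutation p below 0.333.

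Differences ranged from -0.17 for Adra2a to 0.81 for Chrna3 on the log2 scale. There were 20 genes above 0 and 9 below, or 69.0% above, with a median of 0.16. After median centring or quantile normalization, which turned Adra1b, 19 lay above 0. Over all 3181 tested genes the share above 0 was 52.4% and the median 0.01. The median of the absolute difference was 0.16 for the receptors and 0.18 for all genes. Both estradiol pools lay above both placebo pools for 6 of 29 receptor genes, or 20.7%, against 16.1% of all tested genes and 15.4% of all tested probe sets. Both lay below for 0 of 29, against 14.0 and 14.3%. In either direction the pools did not overlap for 6 of 29, against 30.1 and 29.7%. The receptor median depended on several choices. It was 0.02 without estradiol 1, with 17 of 29 genes above 0, and 0.09 without placebo 1, also with 17 of 29. With only probe sets above the 60th percentile of the mean it was 0.02, with 8 of 14 genes above 0. In bulk tissue, fewer cells of a type and less RNA per cell cannot be told apart.

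**Figure D2:**
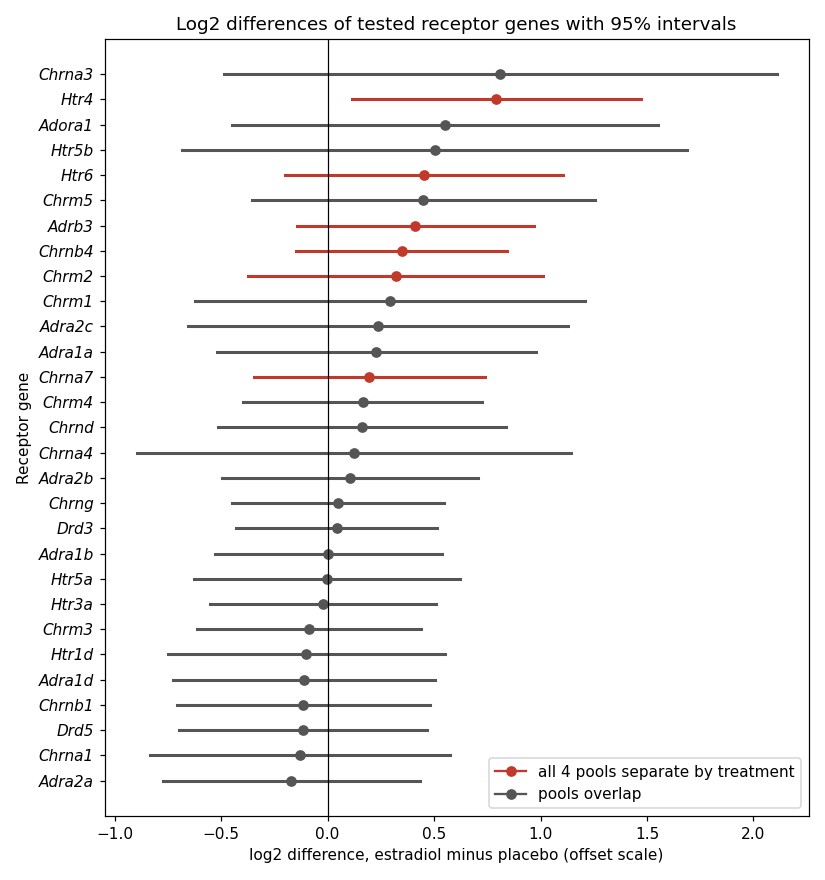
Log2 difference between estradiol and placebo (horizontal axis, offset scale) for the 29 tested receptor genes, with 95% intervals from limma. Red marks the 6 genes whose 4 pools separate by treatment. The interval of Htr4 lies above 0, from 0.12 to 1.47, and those of the other 28 genes include 0; no gene passed after adjustment.

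The 95% intervals show how far a difference could lie from 0. Their half-width ran from 0.47 to 1.30 with a median of 0.63. For 19 of the 29 genes the interval stayed within a log2 difference of 1 in either direction, and for 10 it reached beyond it.

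Htr4 encodes a Gs-coupled serotonin receptor. Its probe set read 84.6 in estradiol 1 and 78.5 in estradiol 2, against 46.1 in placebo 1 and 35.0 in placebo 2. All 4 values were above background, and both estradiol values exceeded both placebo values. The means were 81.5 ± 4.31 (SD, n = 2) and 40.5 ± 7.85 (SD, n = 2). The log2 difference was 0.79 ± 0.29 (SE), with an unadjusted p of 0.0274 and an adjusted p of 0.998 in limma. With 1 array left out it lay between 0.65 and 0.93, and the unadjusted p was 0.100 without estradiol 1, 0.0728 without estradiol 2, 0.0342 without placebo 1 and 0.0902 without placebo 2. The p therefore stayed below 0.05 in 1 of these 4 settings. The remaining probe sets of the gene did not carry this difference. The dimmer read between 9.1 and 14.6 over the 4 pools, and the other 27.1 and 17.7 under estradiol versus 15.1 and 42.7 under placebo. Both were too dim to be tested, and the mean of all probe sets of Htr4 gave 0.25.

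Htr6 encodes another Gs-coupled serotonin receptor, known mainly from striatum and cortex. It read 87.4 and 72.6 under estradiol versus 60.9 and 47.6 under placebo, with no overlap. Its log2 difference was 0.45 ± 0.28 (SE), with a 95% interval from -0.20 to 1.11 and an adjusted p of 0.998 in limma. The remaining serotonin receptor genes above background in all pools showed overlapping treatments. Htr3a, the subunit of the serotonin-gated channel of cortical interneurons, stood at 176.3 and 144.8 against 149.5 and 176.3, a log2 difference of -0.02. Its interval ran from -0.55 to 0.51. The mean of all probe sets of Htr3a, of which the others were at background in at least 3 pools, gave -0.26. Htr1d, a Gi-coupled receptor gene, stood at 83.6 and 61.3 against 68.9 and 88.2, a difference of -0.10. Htr5a, also Gi-coupled, stood at 64.5 and 66.4 against 61.8 and 69.6, all within the spread of the placebo pools. Of 13 serotonin receptor genes in all, 6 were tested, 3 with values above 0 and 3 below.

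Htr5b, a rodent serotonin receptor gene, differed between the pools of each treatment. It read 82.4 and 47.9 under estradiol versus 77.7 and 17.4 under placebo, where placebo 2 was at background. Its log2 difference was 0.50 ± 0.51 (SE) and became -0.24 without placebo 2.

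All 6 alpha-adrenergic genes were tested, 4 with values above 0 (Adra1b only before median centring or quantile normalization) and 2 below, and in none did the pools separate by treatment. The Gq-coupled Adra1a read 51.0 and 55.6 under estradiol versus 51.1 and 36.1 under placebo, a log2 difference of 0.23. Adra1b, also Gq-coupled, stood at 113.9 and 115.5 against 105.1 and 124.3, so both treatments had a mean of 114.7 and the interval of the difference ran from -0.53 to 0.54. Adra1d stood at 184.6 and 115.5 against 155.3 and 163.5, where both the highest and the lowest value belonged to estradiol. Its other probe set, at 54.6 and 66.4 against 56.8 and 69.5, also overlapped.

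The Gi-coupled Adra2a, which acts as an autoreceptor on noradrenergic terminals, had a pool pattern like that of Adra1d. It read 161.0 and 103.7 under estradiol versus 145.9 and 149.6 under placebo. Its log2 difference of -0.17 ± 0.26 (SE) was the lowest among the tested receptors, and it was 0.11 without estradiol 2. A further Adra2a probe set, above background in all pools at 55.6 and 48.5 against 43.3 and 63.8, gave -0.02, as did the mean of all probe sets of the gene. With such means the lowest value was that of Htr3a. Adra2b stood at 91.3 and 92.0 against 71.7 and 98.0, a difference of 0.11. Adra2c stood at 43.6 and 74.3 against 32.2 and 64.3, at background in placebo 1 and higher in the second pool of both treatments. Of the beta-adrenergic genes, Adrb3, the Gs-coupled receptor gene best known from brown fat, read 165.7 and 143.6 under estradiol versus 98.0 and 127.6 under placebo. Its pools did not overlap, and the log2 difference was 0.41 ± 0.24 (SE), with an interval from -0.14 to 0.97. Adrb1, a Gs-coupled receptor gene of heart and cortex, exceeded background only in estradiol 1, at 39.2, and read 13.1 to 26.6 in the other pools. It was not tested.

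The dopamine receptor genes showed no separation by treatment. Drd3, a Gi-coupled receptor gene of ventral striatum, read 702.1 and 645.1 under estradiol versus 716.5 and 594.7 under placebo, a log2 difference of 0.04 with an interval from -0.43 to 0.51. Its other probe set was at background on every array, between 5.6 and 10.6, so 1 probe set of this gene lay above background and the other did not. Drd5, a Gs-coupled receptor gene, stood at 102.6 and 89.2 against 120.4 and 91.5, a difference of -0.12. It was 0.06 without placebo 1.

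All 5 muscarinic genes were tested, 4 with values above 0 and 1 below. Chrm2, a Gi-coupled receptor gene, read 63.1 and 57.1 under estradiol versus 46.3 and 43.6 under placebo, with no overlap and a log2 difference of 0.32 ± 0.30 (SE). Its other probe set ran the opposite way, with 24.5 and 32.9 with estradiol below 45.2 and 34.2 with placebo, and the mean of both probe sets gave a difference of 0.00. Chrm4, the Gi-coupled muscarinic gene of striatal neurons, stood at 153.5 and 114.6 against 111.3 and 122.5, a difference of 0.16 that was -0.02 without estradiol 1. Its other probe set was at background in every pool, at 26.1 and 34.8 under estradiol versus 6.7 and 10.8 under placebo. The mean of both probe sets gave a log2 difference of 0.54, with an unadjusted p of 0.0545 in limma. Chrm3, a Gq-coupled receptor gene, stood at 227.0 and 216.9 against 271.4 and 206.5, a difference of -0.09.

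The other Gq-coupled muscarinic genes were at background in 1 placebo pool each. Chrm1, the main muscarinic gene of cortical pyramidal neurons, read 49.4 and 40.9 under estradiol versus 48.6 and 22.4 under placebo, where placebo 2 was at background. Its log2 difference was 0.29, or -0.08 without placebo 2 and 0.07 with the mean of all probe sets of the gene. Chrm5 stood at 87.7 and 77.0 against 37.2 and 81.2, where placebo 1 was at background. Its difference of 0.45 ± 0.35 (SE) was 0.01 without placebo 1.

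Neuronal nicotinic subunits numbered 10, of which 4 were tested, each with a value above 0. Chrna7 forms calcium-permeable channels on its own. It read 111.2 and 103.0 under estradiol versus 93.3 and 89.5 under placebo. The pools did not overlap, and the log2 difference was 0.20 ± 0.23 (SE) with an interval from -0.35 to 0.74. A further Chrna7 probe set stood at 67.7 and 55.5 against 55.3 and 17.9, with placebo 2 at background. It gave a log2 difference of 0.65 ± 0.42 (SE). The remaining one stood at 23.6 and 12.9 against 13.7 and 49.6, at background except in placebo 2. With the mean of all probe sets of Chrna7 the difference was 0.16. Chrnb4, a subunit of ganglionic and habenular receptors, stood at 187.9 in both estradiol pools and at 138.3 and 150.1 with placebo. Its log2 difference was 0.35 ± 0.21 (SE), with an unadjusted p of 0.142 and an adjusted p of 0.998 in limma. Its other probe set overlapped, at 86.8 and 48.1 against 29.9 and 99.3.

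Among the untested nicotinic subunits, the pools of Chrnb2 did not overlap, with both estradiol values below both placebo values. All 4 values were at background, so no direction is read from them. Among untested genes of other families, Drd4, Hrh2 and Htr2c separated the other way. The promoter windows of Chrna7 and Chrnb4 are shown because these are the tested nicotinic subunits whose pools did not overlap. They are the 250 bases before the annotated start in RefSeq, build GRCr8, on the minus strand, chr1:126249130-126249379 for Chrna7 and chr8:64333110-64333359 for Chrnb4. Capitals mark the core letters of the estrogen response element, GGTCA, and the Sp1 box, GGGCGG, on either strand.
Chrna7: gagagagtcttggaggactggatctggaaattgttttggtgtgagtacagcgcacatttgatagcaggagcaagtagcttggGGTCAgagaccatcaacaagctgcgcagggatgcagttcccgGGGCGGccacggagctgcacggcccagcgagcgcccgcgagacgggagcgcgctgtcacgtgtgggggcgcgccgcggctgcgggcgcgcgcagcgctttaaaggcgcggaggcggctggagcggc
Chrnb4: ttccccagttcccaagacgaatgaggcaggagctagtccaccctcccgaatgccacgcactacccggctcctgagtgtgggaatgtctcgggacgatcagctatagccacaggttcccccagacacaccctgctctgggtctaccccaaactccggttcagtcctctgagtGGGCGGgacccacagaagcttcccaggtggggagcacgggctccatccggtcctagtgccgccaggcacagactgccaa

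The Chrna7 window held GGTCA starting 168 bases before the start and GGGCGG starting 126 bases before it. The Chrnb4 window held GGGCGG starting 79 bases before the start and no GGTCA. Windows of this length were found for 37 of the 48 receptor genes. On either strand, GGTCA was present in 8 of the 37 (21.6%), against 35.2% of 27457 promoters, and GGGCGG in 18 (48.6%), against 32.4%. The full estrogen response element, GGTCANNNTGACC, which contains GGTCA, was in 0 of 37 and in 6 of all promoters. The AP-1 letters TGANTCA were in 0 of 37, against 6.36% of all promoters.

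Chrna3, which assembles with Chrnb4 and is its neighbour on chromosome 8, with Chrna5 on its other side, did not share its pattern. Chrna3 read 33.7 and 82.5 under estradiol versus 48.3 and 8.7 under placebo. Estradiol 1 and placebo 2 were at background. The log2 difference of 0.81 ± 0.56 (SE) was the highest among the tested receptors and had an interval from -0.48 to 2.11. It was 0.12 without placebo 2. Chrna5 was at background throughout, between 2.4 and 21.0. Chrna4, which pairs with Chrnb2 in brain, stood at 51.8 and 28.7 against 21.8 and 51.7, a difference of 0.12. Chrna2 stood at 41.6 and 18.8 against 13.6 and 44.6 and was not tested. Both had 1 pool of each treatment above background.

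The muscle nicotinic subunits numbered 5, of which 4 were tested, 2 with values above 0 and 2 below. Chrng, the subunit of the fetal muscle receptor, read 290.2 and 276.3 under estradiol versus 301.6 and 247.5 under placebo, a log2 difference of 0.05 with an interval from -0.45 to 0.54. Chrnb1 stood at 136.9 and 107.5 against 155.6 and 113.0, a difference of -0.11. It was higher in the first pool of both treatments. Chrnd stood at 82.5 and 62.2 against 53.8 and 72.3, a difference of 0.16, and Chrna1 at 52.7 and 64.9 against 53.8 and 79.3, a difference of -0.13. Chrne, the adult subunit, exceeded background only in estradiol 1, at 45.0, with 17.5 to 30.1 elsewhere.

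Because these 5 subunits are known from skeletal muscle, markers of that tissue were read beside them. Of 9 skeletal muscle genes on the array, 5 lay above background in all pools and 2 in none. The summed intensity of the 9 was 616.4 and 699.5 under estradiol versus 658.8 and 696.6 under placebo. The brightest was Pvalb, at 179.2 and 229.2 under estradiol versus 207.4 and 274.3 under placebo, so it weighed most in the sum. Whether cortical cells also express Pvalb or the other listed genes was not checked. The sum and the counts therefore cannot be read as muscle RNA alone. Tnnt3, a troponin gene, stood at 62.3 and 33.9 against 9.2 and 48.7. The muscle creatine kinase gene Ckm stood at 63.1 and 71.7 against 74.0 and 33.5. Tnni2, a fast troponin gene, was at background throughout, between 3.3 and 12.6. Whether muscle RNA contributed to the subunit values was not tested.

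The adenosine receptors were represented by Adora1 and Adora2b. Adora1, the Gi-coupled receptor through which adenosine inhibits transmitter release, read 78.0 and 54.3 under estradiol versus 21.4 and 66.2 under placebo, where placebo 1 was at background. Its log2 difference was 0.55 ± 0.43 (SE), with an unadjusted p of 0.237 in limma, and it was -0.02 without placebo 1. Adora2b, a Gs-coupled receptor gene of low adenosine affinity, exceeded background only in estradiol 2, at 41.0, with 13.0 to 26.9 elsewhere.

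**Figure D3:**
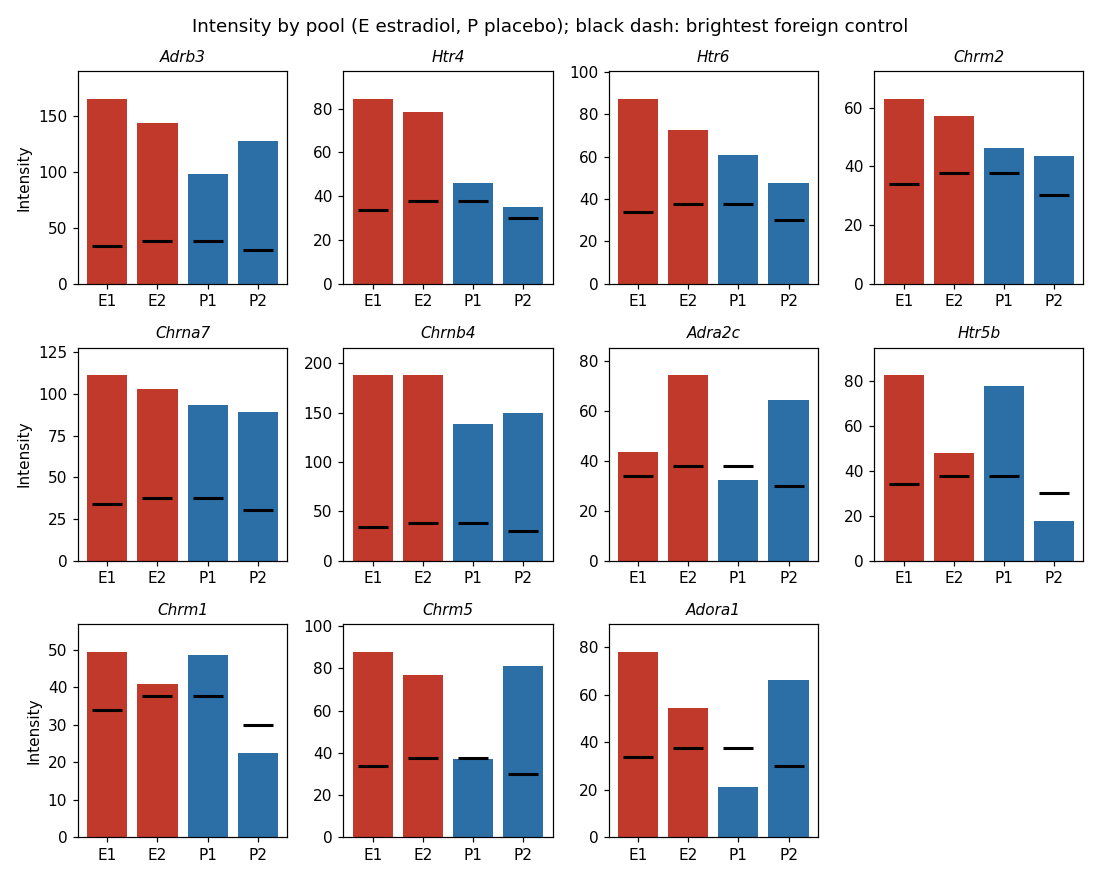
Intensity in each pool (bars, E estradiol in red, P placebo in blue, linear axes from 0) for the 6 tested receptor genes whose pools separate by treatment and the 5 tested genes above background on 3 arrays. The black dash is the brightest foreign control of that array. Adora1, Chrm5 and Adra2c fall to or below it in placebo 1, and Chrm1 and Htr5b in placebo 2.

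Pools of the same treatment differed as well. Between the single pools of a treatment, the median absolute log2 difference over the 29 genes was 0.20 for estradiol and 0.33 for placebo. Over all tested genes it was 0.26 for each treatment. The value between treatments, 0.16 for the 29, compares means of 2 pools, which vary less than single pools. It is therefore not measured against the values between pools. Estradiol 1 alone was the brightest pool for 14 of the 29 genes and the dimmest for 1. Over all tested genes it was the brightest for 22.7% and the dimmest for 22.4%. Placebo 1 and placebo 2 were each the dimmest pool for 11 of 29 genes, or 37.9%. Over all tested genes the shares were 30.6% for placebo 1 and 22.8% for placebo 2. With 1 array left out in turn, 9 of the 29 genes kept the sign of their difference and 20 did not. The 9 were Adra1a, Adrb3, Chrm2, Chrm5, Chrna3, Chrna7, Chrnb4, Htr4 and Htr6. Of these, Adrb3, Chrm2, Chrna7, Chrnb4, Htr4 and Htr6 could not change sign, since their pools did not overlap. For them the kept sign adds nothing to the order of the pools. The share over all tested genes was not computed.

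**Figure D4:**
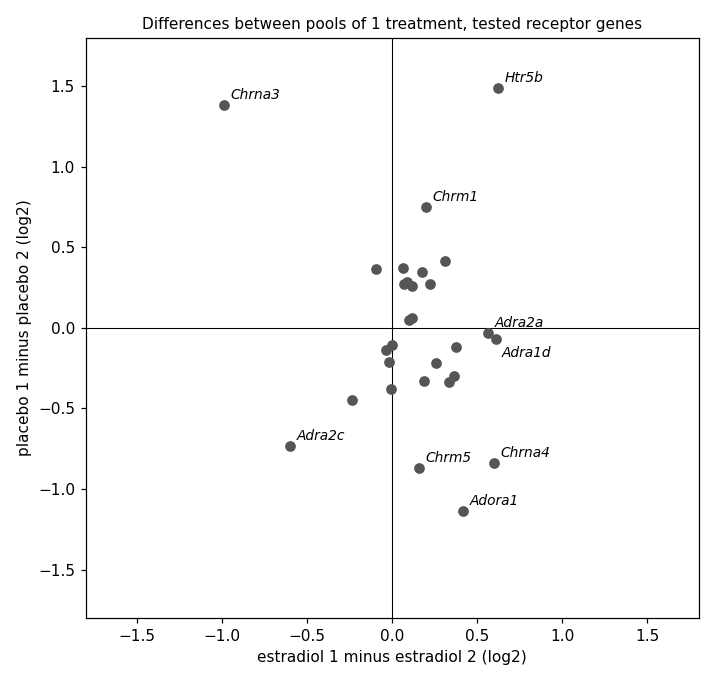
Log2 difference between the pools of one treatment for the 29 tested receptor genes, estradiol 1 minus 2 on the horizontal axis and placebo 1 minus 2 on the vertical axis (offset scale). Chrna3 lies at -0.99 and 1.38, Htr5b at 0.62 and 1.49 and Adora1 at 0.42 and -1.14.

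Markers of other regions and cell types also differed among the pools. Of 10 choroid plexus genes, 9 lay above background in all pools and none was at background in all, and their summed intensity was 1266 and 5765 under estradiol versus 10794 and 989.1 under placebo. Of 13 striatal genes on the array, 9 lay above background in all pools, with Drd2 and Gpr6 at background throughout, and their sums were 3286 and 3101 under estradiol versus 2288 and 2344 under placebo. Of 9 cortical genes, 5 did so, with Slc17a7, Rorb and Egr3 at background throughout. Their sums were 7213 and 7132 under estradiol versus 8302 and 9951 under placebo. Both estradiol pools thus had a higher striatal sum and a lower cortical sum, and bright genes weigh most in a sum. Of 10 tested striatal genes, 7 had values above 0, with Tac1 at 1.68 and Penk at 1.33 the highest. The 3 below 0 were Pdyn at -0.16, Adora2a at -0.03 and Chat at -0.44. Of 6 tested cortical genes, 1 lay above 0 and 5 below. The 11 neuron markers all lay above background, with sums of 10146 and 10627 under estradiol versus 8959 and 12728 under placebo. Placebo 1, where the tested genes Adora1, Adra2c, Chrm5 and Chrna4 were at background, had the lowest neuron sum and the highest choroid plexus sum. Placebo 2, where the tested genes Chrm1, Htr5b and Chrna3 were at background, had the highest neuron sum and the lowest choroid plexus sum. Chrna3 was also at background in estradiol 1, and Chrna4 in estradiol 2. All 6 blood genes lay above background and had values below 0, with a median log2 difference of -0.71. Their sums were 2087 and 4461 under estradiol versus 6406 and 5611 under placebo, and 3 of the 6 had an unadjusted p below 0.05 in limma, against 2.58% of all tested genes. Of 13 vascular and smooth muscle genes, 8 lay above background in all pools, and Cnn1, Des and Vwf were at background throughout. The 8 tested all had values below 0, with a median of -0.31 and 2 at an unadjusted p below 0.05, and the sums of the list were 852.8 and 821.4 under estradiol versus 1244 and 955.6 under placebo. Of the tested striatal genes 3 of 10 were below that p, and of the cortical genes 1 of 6. Adjusted over all probe sets, 0 genes of any marker list passed. The part of these differences in the receptor values was not tested.

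Genes that make, store, take up and break down the same transmitters gave 0 calls in limma at the adjusted threshold, and 1 at an unadjusted p below 0.05. That gene was Th, 1 of 11 tested monoamine genes, with 0 of 4 acetylcholine and 0 of 8 adenosine genes, against 2.58% of the 3181 tested genes. Of the 11 monoamine genes, 7 lay above 0 and 4 below, and the median was 0.04. Th, the rate-limiting enzyme of catecholamine synthesis, read 181.6 and 183.4 under estradiol versus 105.9 and 108.7 under placebo. Its pools did not overlap, and the log2 difference was 0.69 ± 0.22 (SE), with an unadjusted p of 0.0137 and an adjusted p of 0.998 in limma. It lay between 0.67 and 0.70 with 1 array left out. The lowest value was that of Maob, a monoamine-degrading enzyme of astrocytes, with -0.25, or 0.05 without estradiol 1.

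Of 4 tested acetylcholine genes, 2 lay above 0 and 2 below, with a median of 0.11. Slc18a3, the vesicular acetylcholine transporter gene, read 150.5 and 226.7 under estradiol versus 145.0 and 106.9 under placebo, a log2 difference of 0.52. Chat, the synthesising enzyme, stood at 35.1 and 48.3 against 47.2 and 79.1, a difference of -0.44. Adenosine genes had 4 of 8 above 0 and a median of 0.005. Adk, which removes adenosine by phosphorylation, read 152.2 and 128.4 under estradiol versus 101.0 and 107.2 under placebo, a difference of 0.38. Ahcy, which forms adenosine from S-adenosylhomocysteine, stood at 111.2 and 119.4 against 163.0 and 160.5, a difference of -0.44. In both, the pools did not overlap.

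Of 6 tested receptor kinases and arrestins, which switch off activated receptors, 1 had a value above 0 and 5 below, with a median of -0.14. Grk4 read 94.6 and 35.8 under estradiol versus 35.8 and 40.3 under placebo, a log2 difference of 0.49 that was -0.06 without estradiol 1. Grk3 stood at 14.8 and 69.1 against 75.2 and 55.2, a difference of -0.65 that was 0.08 without estradiol 1. Each of these values therefore rested on estradiol 1.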

How the data were processed

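The authors deposited linear intensities, 1 for each probe set on each array. The values show that arrays had been scaled, since their trimmed means lie between 150.18 and 150.20. Labelled cRNA was made from 5 µg of total RNA, per the series design text. The summarising program is unknown here, and original scanner values and detection calls were not used here. The 59 control rows among 8799 entered no test. Gene symbols came from the platform annotation, 7006 probe sets having 1 symbol, 308 several and 1426 none. A RefSeq gene table (GRCr8) matched 6985 of their identifiers and changed 0 symbols.

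Values were transformed as log2(intensity + 16), which understates changes of dim probe sets. They were fitted with limma 3.58.1 in R 4.3.3 (lmFit, eBayes with trend, two-sided), with 2 residual and 5.63 prior degrees of freedom. The number of arrays limits the precision. The fit was also run on simulated data, with changes larger than any receptor difference reported here. That run does not bear on the power to find differences of the reported size. Tables and figures used Python 3.11.15, pandas 2.3.3 and matplotlib 3.10.9. Alternatives were other offsets, filters, normalizations and variance models, the replicate number as a block, the mean of all probe sets of a gene, and each array left out.

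The receptor genes and gene lists were chosen with earlier results of these data known. Genes named with all 4 values were those above background on all arrays, those above it in both pools of 1 treatment only, the 3 highest and 3 lowest differences, and the highest and lowest of each pathway list. Others were named to account for every receptor gene.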

Additional observations from a re-analysis of the deposited data

How the results depend on the processing

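Under every alternative run on probe sets, limma made 0 calls, and no receptor gene passed with the mean of all probe sets of a gene either. The replicate block also gave 0 calls and left the receptor median at 0.161 with 20 genes above 0. The titles number the pools but do not say that a number marks a shared batch, and pool deviations of the same number correlated at 0.036 over probe sets, so the numbers were not taken as pairs. The median of the receptor genes was 0.023 with the filter at the 60th percentile, where 14 genes were left and 8 lay above 0. With 1 array left out it ran from 0.015 (without estradiol 1) to 0.194 (without estradiol 2). Under the other alternatives it lay between 0.093, with no filter and all 48 genes, and 0.192, with an offset of 1. The unadjusted call of Htr4 was lost with that filter, which removed its probe set, with the mean of all probe sets of a gene, and without estradiol 1, estradiol 2 or placebo 2. Adra1b turned to -0.03 after median centring and -0.02 after quantile normalization, and the cause was not tested. With 1 array left out, the log2 difference ran for Adora1 from -0.02 to 1.12, Adra1b from -0.10 to 0.11, Adra1d from -0.42 to 0.19, Adra2a from -0.45 to 0.11 and Adra2b from -0.08 to 0.30. It ran for Adra2c from -0.13 to 0.61, Chrm1 from -0.08 to 0.67, Chrm3 from -0.27 to 0.10, Chrm4 from -0.02 to 0.35 and Chrna1 from -0.35 to 0.09. The range was, for Chrna4 from -0.30 to 0.54, Chrnb1 from -0.32 to 0.09, Chrnd from -0.01 to 0.33, Chrng from -0.09 to 0.18 and Drd3 from -0.09 to 0.17. The remaining ranges were, for Drd5 from -0.29 to 0.06, Htr1d from -0.28 to 0.08, Htr3a from -0.15 to 0.11, Htr5a from -0.07 to 0.07 and Htr5b from -0.24 to 1.25. The number of receptor genes above background on all arrays was 22, or 21 with the median plus 3 SD of the foreign controls as background.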
